A study of Mus musculus with 30 samples.

Results

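The 10 genes described here are Trp53, which encodes the transcription factor p53, and 9 genes that p53 is known to activate: Cdkn1a, Mdm2, Bbc3, Bax, Ccng1, Phlda3, Sesn1, Trp53inp1 and Btg2. They were taken by name, as the rows of the deposited expression table whose Ensembl identifiers carry these symbols in GENCODE M21. The choice of these names was made with earlier results of these data known. All 10 were found among the 29861 genes of the table, and all 10 passed the filter on low values described next to the first test. RNA was measured in CCG-HTA-1, a line of primary mouse tail fibroblasts from UMHet3 mice, a genetically mixed stock, at passage 4. All cells had high-glucose medium without sodium pyruvate and ambient oxygen, and RNA was collected 48 hours after a compound was added. All libraries came from this 1 line, so replicates are cultures or libraries and p-values measure only the spread between them, which may be technical.

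The compounds, spelled as in the labels, were Antimycin A, an inhibitor of respiratory complex III, Dihydrorotenone, a relative of the complex I inhibitor rotenone, and Diphenyleneiodonium Cl, an inhibitor of flavoenzymes. The others were Cardamonin, a plant chalcone, BerberineA, Clofilium tosylate, a blocker of potassium channels, AEG 3482, and Podofilox, which binds tubulin and stops microtubule assembly. Each compound had 3 libraries, and the solvent control DMSO had 6. The labels give the mice as 5 to 8 weeks old when cells were collected, except for Dihydrorotenone replicate 1, whose label says 8 to 11 weeks. Doses are not given in the sources used here, so compounds are compared as they were applied.

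p53 is held low in unstressed cells by Mdm2, a ubiquitin ligase that marks it for degradation. Stress that blocks this step lets p53 accumulate and bind DNA, where it raises genes that stop the cell cycle, start cell death, repair DNA or lower oxidative stress. Mdm2 is itself a target, which closes a negative feedback loop. The level of p53 is set mostly at the protein, which RNA does not show. Fibroblasts are a classic setting for this pathway, since p53 and the Cdkn1a product p21 drive their arrest in culture.

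p53 binds pairs of a decamer, the p53 half-site, and the windows around the start sites show which members carry it there. RefSeq promoter windows (GRCm38.p6, 250 bases before to 50 bases after a start site) were found for 9 of the 10 members, 13 windows in all, and not for Trp53inp1. The half-site, searched by its consensus on both strands, of which it is its own reverse complement, occurred in 8.36% of all 32851 windows of this length. It occurred in 6 of the 13 windows of members, 1 each for Bax, Ccng1, Cdkn1a, Mdm2, Sesn1 and Trp53, and in no window of Bbc3, Btg2 or Phlda3. Stretches of 40 bases of the other 5 follow, because they show how far the letters differ between members. Capitals mark the half-site, and each is written 5′ to 3′ along the strand of its gene.
Bax, chr7:45467075-45467114, minus strand: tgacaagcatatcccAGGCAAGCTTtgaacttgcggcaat
Sesn1, chr10:41887251-41887290, plus strand: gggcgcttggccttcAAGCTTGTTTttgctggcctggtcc
Mdm2, chr10:117710920-117710959, minus strand: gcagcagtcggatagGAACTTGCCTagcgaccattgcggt
Ccng1, chr11:40755447-40755486, minus strand: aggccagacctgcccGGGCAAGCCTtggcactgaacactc
Trp53, chr11:69580269-69580308, plus strand: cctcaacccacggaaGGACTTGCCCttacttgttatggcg
The half-site began 201 bases before the start site in Bax, 173 in Sesn1, 186 in Mdm2, 185 in Ccng1 and 75 in Trp53. For Sesn1 this start site is that of the window at 41887189 to 41887488. Its window at the upstream start site, 41810324 to 41810623, had no half-site.

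A full site, meaning 2 half-sites with 0 to 13 bases between them, occurred in 24 windows (0.0731%), and Cdkn1a had the only one among the members. Its 250 bases before the first RefSeq start site (position 29090979) are printed because they hold this pair, at 73 and 51 bases before that start site, with 12 bases between the half-sites. They lie 2863 and 2841 bases before the second start site, at position 29093769.
Cdkn1a, chr17:29090729-29090978, plus strand: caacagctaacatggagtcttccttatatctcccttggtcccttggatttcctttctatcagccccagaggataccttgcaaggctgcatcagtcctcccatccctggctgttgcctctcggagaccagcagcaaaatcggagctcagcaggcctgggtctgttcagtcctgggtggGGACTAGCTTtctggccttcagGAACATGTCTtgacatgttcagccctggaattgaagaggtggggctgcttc
The 10 bases directly after the second Cdkn1a half-site, tgacatgttc, begin with t, where the consensus has a or g. The exact search therefore left them unmarked, although they lie next to that half-site without a gap. Which of these decamers p53 pairs on was not tested. These matches describe letters in short windows only, and no binding was measured.

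Values are TPM, a transcript level per transcript length relative to all transcripts of the same library. The listed genes of a library summed to between 927024 and 937134 TPM, between 12229 and 12700 genes reached 1 TPM, and read depth is unknown. All 8 fibroblast markers were at 1 TPM or more in DMSO, with a summed level of 9640 to 11152 TPM. That sum was 3766 to 4762 TPM in Cardamonin, below every other group, and 10697 to 12071 TPM in AEG 3482. In Cardamonin all 8 markers had a mean below that of DMSO. In AEG 3482 6 of the 8 did, such as Dcn (608 against 1472 TPM) and Lum (101.3 against 308 TPM), while Col3a1 (4732 against 2726 TPM) and Vim (3574 against 2542 TPM) were above. Markers of other cell types stayed low: the 5 keratinocyte markers summed to at most 2.41 TPM, the 3 endothelial markers to at most 8.65 TPM and the 5 leukocyte markers to at most 44.9 TPM, the last in Cardamonin, where Cd68 made up most of it. The 4 melanocyte markers summed to 4.54 to 6.93 TPM in DMSO, mostly Mlana, to at most 2.22 TPM in AEG 3482 and Cardamonin and to 9.71 to 18.6 TPM in the compounds other than these and Podofilox. The 3 adipocyte markers summed to 5.59 to 32.2 TPM, with Plin1 at 0, the 4 muscle markers to at most 1.52 TPM, and the 3 chondrocyte markers to 158 to 313 TPM, nearly all Comp. The part of these markers in the results was not tested, and in bulk RNA fewer cells of a type and less RNA per cell cannot be told apart. The library numbers run in blocks of 1 group, so the group and the order of libraries cannot be told apart.

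The p53 genes rose most in AEG 3482 and Cardamonin and by less in Antimycin A, Diphenyleneiodonium Cl and BerberineA. Dihydrorotenone had the fewest calls, and in Podofilox 3 of 4 calls were falls. Each compound was compared with DMSO by limma on log2(TPM + 1) over the 13644 genes that reached 1 TPM in at least 3 libraries, and a gene is said to rise or fall where its Benjamini-Hochberg adjusted p was below 0.05. In AEG 3482, 8 members rose and 1 fell, beside 68.1% of all tested genes called (41.3% higher, 26.8% lower). In Cardamonin, 8 rose and 2 fell, beside 70.3% of all genes (37.3% higher, 33% lower). Since so many genes were called under these 2 compounds, the number of members called says less there than its direction and size. The members' median log2 fold change was 0.83 in AEG 3482 and 0.54 in Cardamonin, where the medians over all tested genes were 0.097 and 0.033.

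In Antimycin A, 7 members rose and 1 fell, beside 37.3% of all genes called (21.8% higher, 15.5% lower), and the members' median was 0.34 against 0.032 over all genes. In Diphenyleneiodonium Cl, 7 rose and 2 fell, beside 25.7% (14% higher, 11.7% lower), with medians of 0.34 and 0.017. In BerberineA, 6 rose and none fell, also at an unadjusted p below 0.05, beside 21.7% (12.6% higher, 9.16% lower), with medians of 0.22 and 0.023. In these 3 groups the share of members that rose was above the share of all genes that rose, and the changes were small. In Clofilium tosylate, 3 rose and 1 fell, beside 23.4% of all genes called (10.9% higher, 12.5% lower), with a members' median of 0.17. In Dihydrorotenone, 1 rose and 1 fell, beside 14.4% (4.95% higher, 9.43% lower), a share of members near the background. The medians there were 0.15 over the members and -0.033 over all genes. In Podofilox, 1 rose and 3 fell, beside 46.2% of all genes (26.2% higher, 20% lower), with a median of -0.047 over the members and 0.036 over all genes. The 8 comparisons share the 6 DMSO libraries, so they are not independent of each other.

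**Figure D1:**
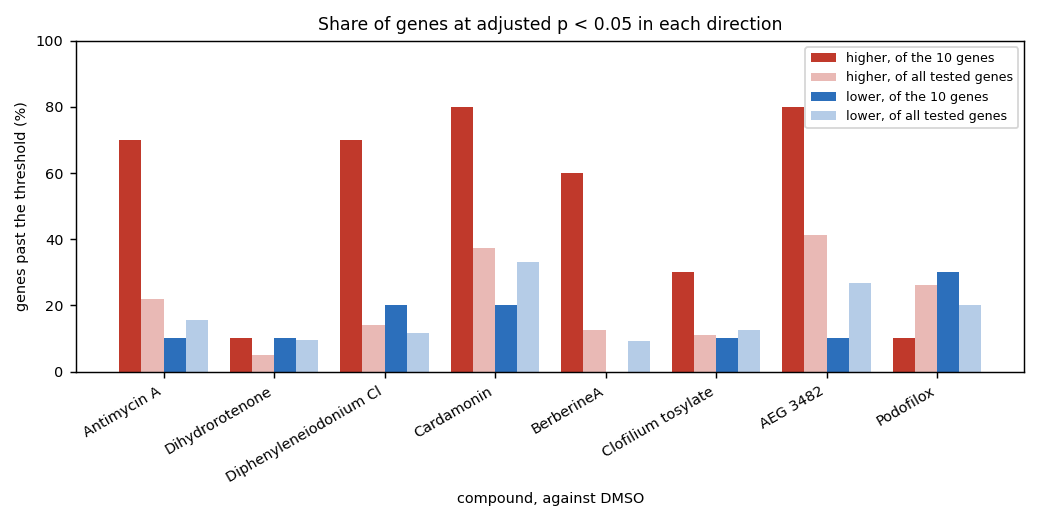
Bars give the percentage called higher and lower against DMSO in each compound, for the 10 members and for all 13644 tested genes, from limma with a Benjamini-Hochberg adjusted p below 0.05. Members called higher exceed the share of all genes in 7 of the 8 compounds. In Dihydrorotenone this rests on 1 of 10 members (10% beside 4.95%), a call lost without its replicate 1 or 2. Podofilox has 3 of 10 members lower (30% beside 20%), and 40% called in either direction beside 46.2%.

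Over the 80 combinations of a member and a compound, 41 rose, 11 fell and 28 did not pass the test. Of all tested genes, between 4.95% and 41.3% rose and between 9.16% and 33% fell, depending on the compound. Cdkn1a rose in 7 of 8 compounds, Bbc3 and Ccng1 in 6, Mdm2, Phlda3 and Trp53inp1 in 5, Bax in 4 and Trp53 in 3. Btg2 rose in none by limma, though 2 of its rises had an unadjusted p below 0.05, and Sesn1 fell in 6. So the 9 target genes did not move as 1 block.

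**Figure D2:**
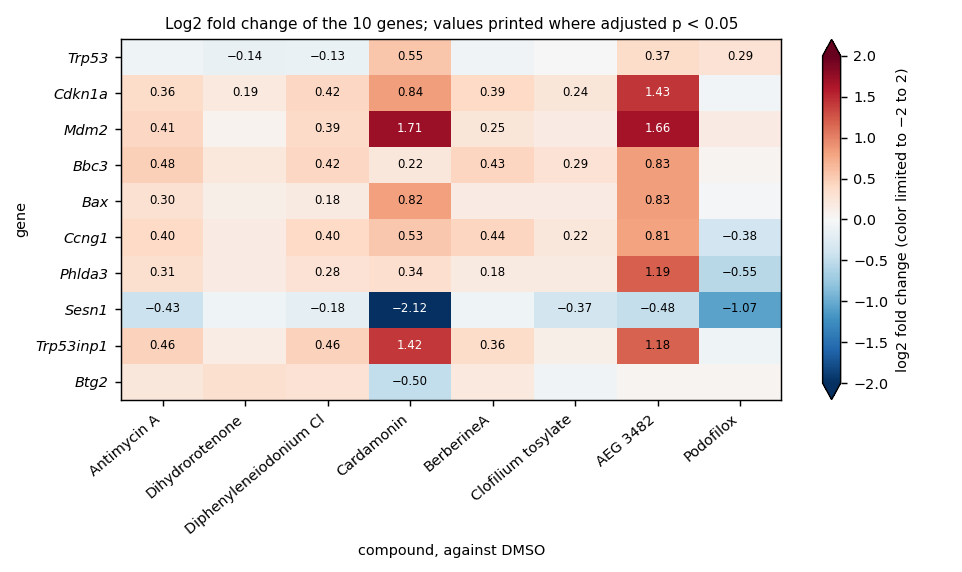
A heat map of log2 fold changes against DMSO on the log2(TPM + 1) scale, with the 10 members as rows and the 8 compounds as columns. Red is higher, blue is lower, the color range ends at -2 and 2, and values are printed where the adjusted p was below 0.05. Mdm2 in Cardamonin reaches 1.71 and Sesn1 in Cardamonin -2.12, the highest and lowest of the 80 values.

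Trp53 itself (ENSMUSG00000059552, chromosome 11, 69580359 to 69591873, plus strand, GRCm38) moved little and in both directions. In the 6 DMSO libraries it stood at 78.4 to 88.4 TPM, median 80.8. It was 116, 118 and 129.7 TPM in Cardamonin, 103, 109.8 and 106 TPM in AEG 3482 and 100.7, 96.4 and 104 TPM in Podofilox. All 9 of these libraries lay above every DMSO library. The log2 fold changes were 0.55 (SE 0.043, adjusted p 1.27e-11) in Cardamonin, 0.37 (SE 0.043, adjusted p 3.32e-08) in AEG 3482 and 0.29 (SE 0.043, adjusted p 4.52e-06) in Podofilox. Cardamonin was above AEG 3482 by 0.19 (SE 0.049, adjusted p 0.00235), and AEG 3482 was not called different from Podofilox, at 0.082 (SE 0.049, adjusted p 0.158).

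Trp53 fell slightly in Dihydrorotenone, to 74.3 ± 2.02 TPM (SD, n = 3) from 82.2 ± 3.92 (SD, n = 6), a log2 change of -0.14 (SE 0.043, adjusted p 0.0238). It also fell in Diphenyleneiodonium Cl, to 75.0 ± 2.90 TPM, a log2 change of -0.13 (SE 0.043, adjusted p 0.0264). Both calls are thin. The first was lost without Dihydrorotenone replicate 1 or 2 or DMSO replicate 2 (adjusted p 0.052 to 0.135). It was also lost under both other scalings, median-ratio scaling and quantile normalization. The second was lost without Diphenyleneiodonium Cl replicate 1 or 2 or DMSO replicate 2 (adjusted p 0.0583 to 0.164). Each was also lost when the compound was fitted with DMSO alone. In Antimycin A, BerberineA and Clofilium tosylate the change was -0.086, -0.063 and 0.0093, and none passed the test, though the Antimycin A value passed under both other scalings (adjusted p as low as 0.0345). Of the 31-base stretches in Trp53 transcripts, 10.2% also occur in another gene, most in the pseudogene Trp53-ps, so a small part of the reads could be split between them.

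Mdm2 (ENSMUSG00000020184, chromosome 10, 117688875 to 117710758, minus strand), the ligase that degrades p53, had the largest rise of all members. It stood at 100.2 to 142 TPM, median 112 in DMSO, at 384, 358 and 382 TPM in Cardamonin and at 368, 355 and 362 TPM in AEG 3482. The lowest of these 6 treated libraries was above 2 times the highest DMSO library. The log2 fold change was 1.71 (SE 0.067, adjusted p 1.46e-17) in Cardamonin, a mean TPM 3.27-fold that of DMSO, and 1.66 (SE 0.067, adjusted p 5.41e-17) in AEG 3482, 3.16-fold in mean TPM. The 2 compounds were not called different from each other, at 0.049 (SE 0.078, adjusted p 0.622) for Cardamonin minus AEG 3482.

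The next group, Antimycin A, stood below AEG 3482 by 1.25 (SE 0.078, adjusted p 3.59e-13) on the log2 scale. Its libraries read 158, 143 and 153 TPM, and those of Diphenyleneiodonium Cl 148, 151 and 148 TPM. All 6 lay above the highest DMSO library, which was replicate 4 and stood apart from the other DMSO libraries, at 119.8 TPM or less. Mdm2 rose by 0.41 (SE 0.067, adjusted p 2.59e-05) in Antimycin A, by 0.39 (SE 0.067, adjusted p 9.89e-05) in Diphenyleneiodonium Cl and by 0.25 (SE 0.067, adjusted p 0.00832) in BerberineA; the last was not called when BerberineA and DMSO were fitted alone (adjusted p 0.121). In Podofilox the change was 0.16 (SE 0.067, adjusted p 0.0512) and missed the threshold. It passed without DMSO replicate 2 or 4 or Podofilox replicate 2 (adjusted p 0.000427 to 0.0426). The Clofilium tosylate change of 0.17 passed without DMSO replicate 4 (adjusted p 0.000947). Both changes also passed with a replicate block, and the Podofilox change with a filter at 5 TPM.

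Set side by side, Trp53 and Mdm2 both rose in Cardamonin and AEG 3482, and Trp53 rose by less, 0.55 against 1.71 and 0.37 against 1.66. In Antimycin A, BerberineA and Diphenyleneiodonium Cl Mdm2 rose and Trp53 did not pass as higher. Podofilox had higher Trp53, while its Mdm2 change did not pass.

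**Figure D3:**
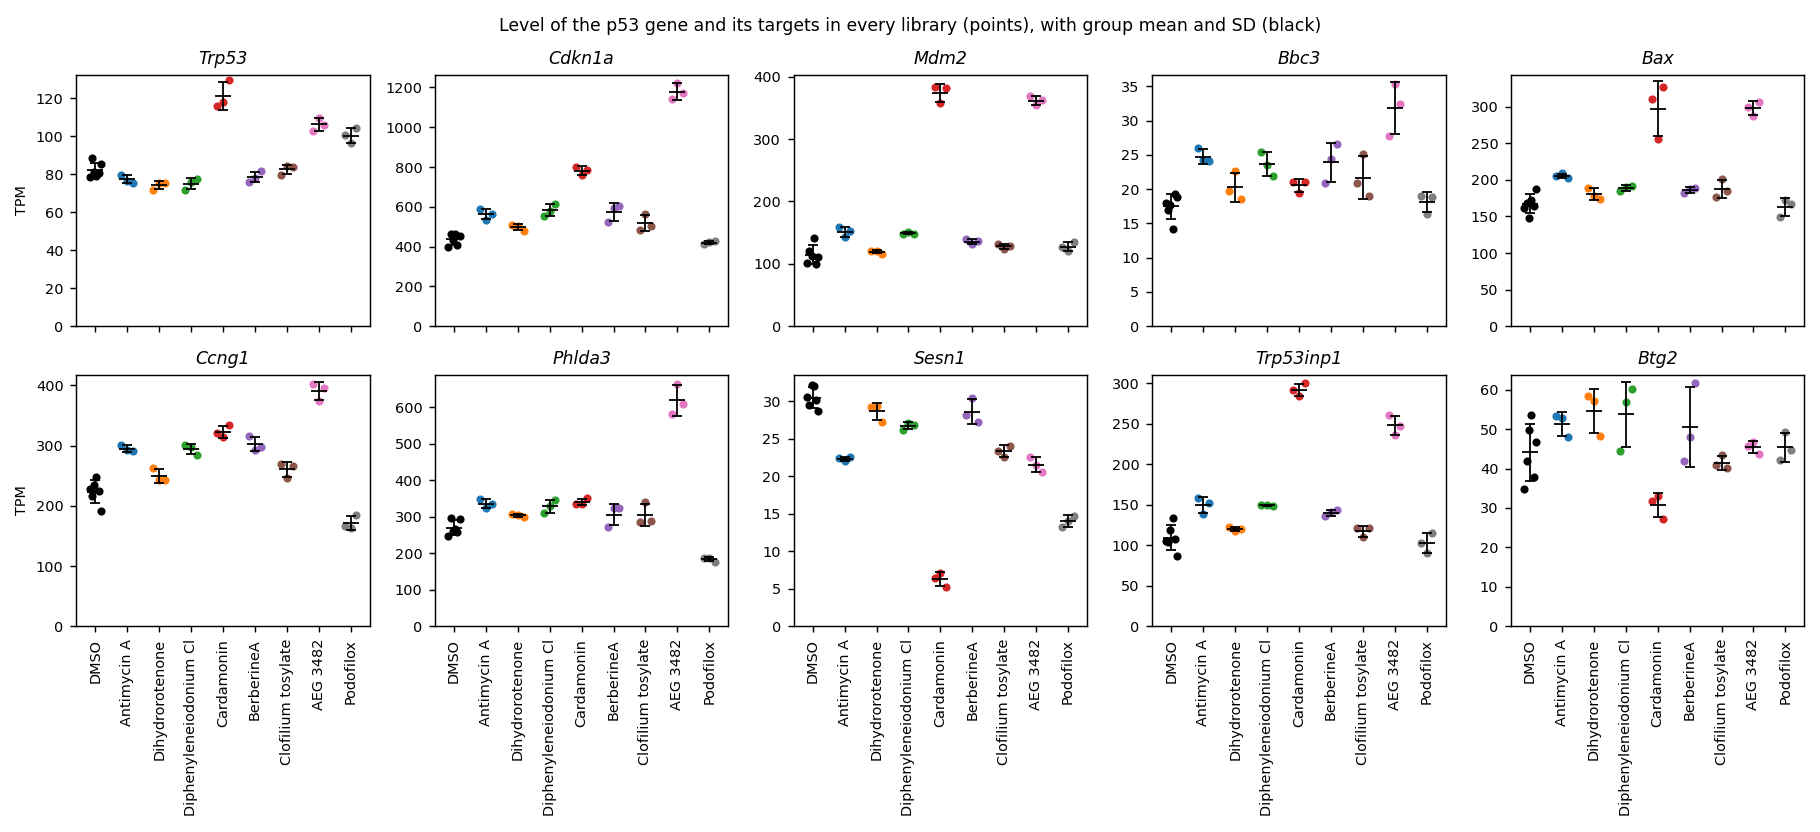
Each point is the TPM of 1 library, with the group mean and SD, for the 10 members in DMSO (6 libraries) and the 8 compounds (3 libraries each). Cdkn1a in AEG 3482 reads 1142, 1224 and 1172 TPM, and all 3 Sesn1 values in Cardamonin lie at or below 7.12 TPM.

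The arrest genes were led by Cdkn1a. Its product p21 inhibits cyclin-dependent kinases and is the best known effector of p53 arrest (ENSMUSG00000023067, chromosome 17, 29090976 to 29100727, plus strand). It stood at 397 to 465 TPM, median 445 in DMSO and was the member with the highest level per transcript length in each group. It read 1142, 1224 and 1172 TPM in AEG 3482, 801, 758 and 787 TPM in Cardamonin and 413, 421 and 427 TPM in Podofilox. All AEG 3482 libraries were above all Cardamonin libraries, these were above every DMSO library, and the Podofilox libraries lay inside the DMSO range.

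Cdkn1a rose by 1.43 (SE 0.055, adjusted p 1.84e-17) in AEG 3482, 2.70-fold in mean TPM, and by 0.84 (SE 0.055, adjusted p 4.71e-13) in Cardamonin, 1.79-fold. Cardamonin was below AEG 3482 by 0.59 (SE 0.063, adjusted p 1.62e-08). Unlike Mdm2, Cdkn1a therefore separated the compounds that raised it most. Diphenyleneiodonium Cl (554, 579 and 614 TPM), BerberineA (524, 596 and 604 TPM) and Antimycin A (587, 536 and 564 TPM) formed the next set, all above the DMSO range. Their rises were 0.42, 0.39 and 0.36 (adjusted p 2.54e-06, 7.84e-06 and 7.59e-06), and no neighbours among them were called different.

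Clofilium tosylate (485, 562 and 503 TPM) rose by 0.24 (SE 0.055, adjusted p 0.002). Dihydrorotenone (509.7, 502 and 480.3 TPM) rose by 0.19 (SE 0.055, adjusted p 0.0216). This call was lost without its replicate 1 or 2 (adjusted p 0.0818 to 0.104). It was also lost after quantile normalization and in the fit with DMSO alone. Podofilox gave -0.054 (SE 0.055, adjusted p 0.451), the only compound without a call. Of the 31-base stretches of Cdkn1a, 9.78% also occur in other genes. The gene that shares the most is AC167363.2, on the opposite strand, which overlaps the exons of Cdkn1a. Whether the counting used strand is not given in the sources used here.

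Ccng1 (ENSMUSG00000020326, chromosome 11, 40748552 to 40755311, minus strand) encodes cyclin G1, which binds phosphatase subunits and acts on Mdm2. It stood at 192 to 248 TPM, median 226 in DMSO, at 402, 374 and 395 TPM in AEG 3482 and at 166, 163 and 185 TPM in Podofilox. AEG 3482 lay above and Podofilox below every DMSO library. It rose by 0.81 (SE 0.056, adjusted p 2.65e-12) in AEG 3482 and by 0.53 (SE 0.056, adjusted p 4.47e-09) in Cardamonin, which was below AEG 3482 by 0.27 (SE 0.065, adjusted p 0.000847). BerberineA (0.44), Antimycin A (0.40) and Diphenyleneiodonium Cl (0.40) rose by similar amounts. Clofilium tosylate rose by 0.22 (SE 0.056, adjusted p 0.00428), a call lost when it was fitted with DMSO alone (adjusted p 0.0594). In Podofilox Ccng1 fell by 0.38 (SE 0.056, adjusted p 4.05e-06). Dihydrorotenone, at 0.16 (SE 0.056, adjusted p 0.0524), missed the threshold. It passed without DMSO replicate 3 or 4 (adjusted p 0.0158 to 0.0471). It also passed after median-ratio scaling, with a filter at 5 TPM and with a replicate block.

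Btg2 (ENSMUSG00000020423, chromosome 1, 134075170 to 134079120, minus strand), an antiproliferative gene and also an immediate early gene, was the member that moved least often. It stood at 34.8 to 53.6 TPM, median 44.3 in DMSO and at 31.7, 33.1 and 27.3 TPM in Cardamonin. All 3 Cardamonin libraries were below every DMSO library, and every other group overlapped with DMSO. In Cardamonin it fell by 0.50 (SE 0.12, adjusted p 0.000628), and AEG 3482 gave 0.057 (SE 0.12, adjusted p 0.688). Dihydrorotenone (0.31, SE 0.12, adjusted p 0.0796) and Diphenyleneiodonium Cl (0.28, SE 0.12, adjusted p 0.0818) missed the threshold. Each passed without DMSO replicate 4, the second also without its own replicate 1 (adjusted p 0.0314 and adjusted p 0.0241 to 0.0301). The Dihydrorotenone change also passed under both other scalings. The spread of Btg2 was widest in BerberineA, at 50.5 ± 10.2 TPM (SD, n = 3), and its standard errors were the largest among the members.

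The death genes Bbc3, Bax, Phlda3 and Trp53inp1 all rose in AEG 3482 and Cardamonin, by different amounts. Bbc3 encodes Puma, a BH3-only protein that activates mitochondrial cell death (ENSMUSG00000002083, chromosome 7, 16308393 to 16318205, plus strand). It stood at 14.2 to 19.3 TPM, median 17.8 in DMSO and read 27.8, 35.3 and 32.5 TPM in AEG 3482. All AEG 3482 libraries were above all DMSO libraries. It rose by 0.83 (SE 0.094, adjusted p 2.2e-08) in AEG 3482, above Antimycin A, the next group, by 0.35 (SE 0.11, adjusted p 0.00715). That difference was not called after quantile normalization.

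Bbc3 also rose in Antimycin A (0.48, SE 0.094, adjusted p 0.000198), BerberineA (0.43, SE 0.094, adjusted p 0.00136) and Diphenyleneiodonium Cl (0.42, SE 0.094, adjusted p 0.00145). The smaller rises were less secure. Clofilium tosylate, at 0.29 (SE 0.094, adjusted p 0.0253), lost its call without its replicate 2 or DMSO replicate 4 (adjusted p 0.0544 to 0.24). That call was also lost in the fit with DMSO alone and with a replicate block. Cardamonin rose by 0.22 (SE 0.094, adjusted p 0.0366). It lost this call without its replicate 1 or 3 or DMSO replicate 2 or 4 (adjusted p 0.0553 to 0.108). The Cardamonin call was also lost under both other scalings, without the filter on low values and with a replicate block. In Cardamonin the log2 change was thus 0.22 for Bbc3 and 1.71 for Mdm2.

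Bax encodes the protein that opens the outer mitochondrial membrane (ENSMUSG00000003873, chromosome 7, 45461697 to 45466898, minus strand). It stood at 149 to 188 TPM, median 166 in DMSO, at 299.8, 288 and 307 TPM in AEG 3482 and at 311, 256 and 326 TPM in Cardamonin. All 6 of these treated libraries were above every DMSO library, and Cardamonin replicate 2 was the lowest of them. The rises were 0.83 (SE 0.065, adjusted p 2.46e-11) and 0.82 (SE 0.065, adjusted p 2.01e-11), not called different from each other, at -0.0094 (SE 0.075, adjusted p 0.932). Antimycin A (205, 209 and 202 TPM) rose by 0.30 (SE 0.065, adjusted p 0.000675). Diphenyleneiodonium Cl rose by 0.18 (SE 0.065, adjusted p 0.0452). This call was lost without any 1 of its 3 replicates or without DMSO replicate 1, 2, 3 or 5 (adjusted p 0.0581 to 0.135). It was also lost under both other scalings, without the filter on low values and in the fit with DMSO alone. BerberineA (0.16, SE 0.065, adjusted p 0.0834) and Clofilium tosylate (0.17, SE 0.065, adjusted p 0.0685) missed the threshold. They passed it without DMSO replicate 6 (adjusted p 0.0265 and adjusted p 0.0207). Both also passed with a replicate block, and Clofilium tosylate after quantile normalization. Of the 31-base stretches of Bax, 11.1% also occur in other genes. The gene that shares the most is Gm45808, a gene model that overlaps Bax on the same strand.

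Phlda3 encodes a pleckstrin homology protein that restrains Akt signalling (ENSMUSG00000041801, chromosome 1, 135766119 to 135769136, plus strand), and it rose in 5 compounds and fell in 1. It stood at 246 to 296 TPM, median 264 in DMSO, at 581, 665 and 609.7 TPM in AEG 3482 and at 187, 188 and 177 TPM in Podofilox. The lowest AEG 3482 library was above, and the highest Podofilox library below, every DMSO library. Phlda3 rose by 1.19 (SE 0.064, adjusted p 1.47e-14) in AEG 3482, 2.29-fold, and fell by 0.55 in Podofilox (SE 0.064, adjusted p 9.32e-08), to 68.0% of the DMSO mean TPM.

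In Cardamonin, Phlda3 rose by only 0.34 (SE 0.064, adjusted p 4.57e-05), which was below AEG 3482 by 0.86 (SE 0.074, adjusted p 3.67e-10). Antimycin A (0.31, adjusted p 0.000328) and Diphenyleneiodonium Cl (0.28, adjusted p 0.00142) rose by amounts near that of Cardamonin. BerberineA rose by 0.18 (SE 0.064, adjusted p 0.0481). This call was lost without BerberineA replicate 2 or 3 or DMSO replicate 1, 3, 4 or 5 (adjusted p 0.0677 to 0.24). It was also lost under both other scalings, without the filter on low values and in the fit with DMSO alone. Clofilium tosylate (0.17, SE 0.064, adjusted p 0.0518) and Dihydrorotenone (0.17, SE 0.064, adjusted p 0.0743) missed the threshold. Both passed without DMSO replicate 2 or 6, and the first also without its own replicate 1 (adjusted p 0.025 to 0.0372 and adjusted p 0.0371 to 0.0409). Both also passed after median-ratio scaling, and Clofilium tosylate after quantile normalization and with a filter at 5 TPM.

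Trp53inp1 encodes a stress protein of p53 regulation and autophagy (ENSMUSG00000028211, chromosome 4, 11156431 to 11174379, plus strand). It stood at 87.0 to 134 TPM, median 106 in DMSO, at 291, 284 and 299.9 TPM in Cardamonin and at 260.2, 237 and 247 TPM in AEG 3482. All Cardamonin libraries were above all AEG 3482 libraries, and both sets were above DMSO. It rose by 1.42 (SE 0.083, adjusted p 4.84e-14) in Cardamonin and 1.18 (SE 0.083, adjusted p 3.12e-12) in AEG 3482. Cardamonin was above AEG 3482 by 0.24 (SE 0.10, adjusted p 0.0394), and this difference was not called without the filter on low values. Antimycin A (0.46, SE 0.083, adjusted p 8.23e-05), Diphenyleneiodonium Cl (0.46, SE 0.083, adjusted p 0.000146) and BerberineA (0.36, SE 0.083, adjusted p 0.00205) followed. Clofilium tosylate, Dihydrorotenone and Podofilox, at 0.11, 0.14 and -0.082, did not pass.

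Sesn1, which encodes sestrin 1, a stress protein that restrains mTORC1 (ENSMUSG00000038332, chromosome 10, 41809935 to 41908424, plus strand), fell in 6 compounds and rose in none. It stood at 28.7 to 32.2 TPM, median 30.3 in DMSO. It read 6.49, 7.12 and 5.29 TPM in Cardamonin, 13.2, 13.995 and 14.8 TPM in Podofilox, 22.5, 21.5 and 20.6 TPM in AEG 3482 and 22.4, 22.1 and 22.6 TPM in Antimycin A. All 12 of these libraries were below every DMSO library.

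Sesn1 fell by 2.12 in Cardamonin (SE 0.058, adjusted p 1.24e-20), to 20.7% of the DMSO mean TPM. It fell by 1.07 in Podofilox (SE 0.058, adjusted p 1.07e-13). It also fell in AEG 3482, Antimycin A and Clofilium tosylate, with log2 fold changes of -0.48, -0.43 and -0.37 (adjusted p 6.19e-08, 1.67e-06 and 3.53e-05). Cardamonin was below Podofilox by 1.05 (SE 0.067, adjusted p 8.34e-13), and Podofilox was below AEG 3482 by 0.59 (SE 0.067, adjusted p 3.64e-08). In Diphenyleneiodonium Cl Sesn1 fell by 0.18 (SE 0.058, adjusted p 0.0216). This call was lost without any 1 of its 3 replicates (adjusted p 0.0517 to 0.0835) and with a replicate block. BerberineA and Dihydrorotenone, at -0.089 and -0.088, did not pass. AEG 3482 and Cardamonin, the compounds that raised Cdkn1a and Mdm2 most, therefore both lowered Sesn1.

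The order of the 9 groups differed between members, and of the 80 neighbouring pairs in these orders 17 were called different. AEG 3482 was the highest group for Cdkn1a, Ccng1, Phlda3 and Bbc3, each time called above the next group, and for Bax. Cardamonin was the highest for Trp53, Trp53inp1 and Mdm2, with Mdm2 and Bax not called different from the other of these 2 compounds. Directly compared, 8 of the 10 members differed between AEG 3482 and Cardamonin (55.3% of all genes did), 6 higher in AEG 3482 and 2 higher in Cardamonin. Between AEG 3482 and Podofilox 8 of 10 differed, all 8 higher in AEG 3482 (60.3% of all genes were called). Between Diphenyleneiodonium Cl and BerberineA none of the 10 was called by limma, none had an unadjusted p below 0.05, and 0.623% of all genes were called.

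Across the 9 group means of log2(TPM + 1), the members formed looser and tighter pairs, given here as a description of 9 points that share libraries. Mdm2 and Bax had a Pearson r of 0.979, Bax and Trp53inp1 0.977, and Mdm2 and Trp53inp1 0.969. Trp53 and Cdkn1a had 0.55. Sesn1 and Btg2 had 0.82, while Sesn1 had -0.65 with Mdm2 and -0.85 with Trp53. Of 10483 other genes compared, those whose group means were most like Cdkn1a were Bin3 (0.989), Cyb561d1 (0.985) and Msh6 (0.984). Those most like Mdm2 were Serpinb6a (0.997), Gstm1 (0.996) and Cbr3 (0.995), and those most like Trp53 were Urb2, Smyd5 and Plk2 (0.992 each).

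The wider p53 pathway was read from a list of 51 further genes, of which 49 were in the table and 46 were tested. Of these 46, 34 rose and 8 fell in AEG 3482, 23 rose and 9 fell in Cardamonin, 22 rose and 6 fell in both Antimycin A and Diphenyleneiodonium Cl, and 19 rose and 4 fell in BerberineA. In Clofilium tosylate 12 rose and 3 fell, in Dihydrorotenone 5 rose and 3 fell, and in Podofilox 15 rose and 11 fell. The share of the 46 called was 69.6% in Cardamonin, near the 70.3% of all tested genes, and 17.4% in Dihydrorotenone, near 14.4%. It was 91.3% beside 68.1% in AEG 3482, 60.9% beside 37.3% in Antimycin A, 60.9% beside 25.7% in Diphenyleneiodonium Cl and 50% beside 21.7% in BerberineA. In Clofilium tosylate 32.6% were called beside 23.4%, and in Podofilox 56.5% beside 46.2%. The median log2 fold change of the list was 0.68 in AEG 3482, 0.27 in Cardamonin, 0.21 in Diphenyleneiodonium Cl, 0.18 in Antimycin A and 0.17 in BerberineA. It was 0.047 in Clofilium tosylate, 0.011 in Dihydrorotenone and 0.016 in Podofilox, beside medians over all genes between -0.033 and 0.097. No gene of the Dihydrorotenone count was called when that compound was fitted with DMSO alone, and leaving out its replicate 1 gave a count of 5, its replicate 2 a count of 4. In Clofilium tosylate 8 of the 46 were called with its replicate 2 left out and 9 in a fit with DMSO alone.

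**Figure D4:**
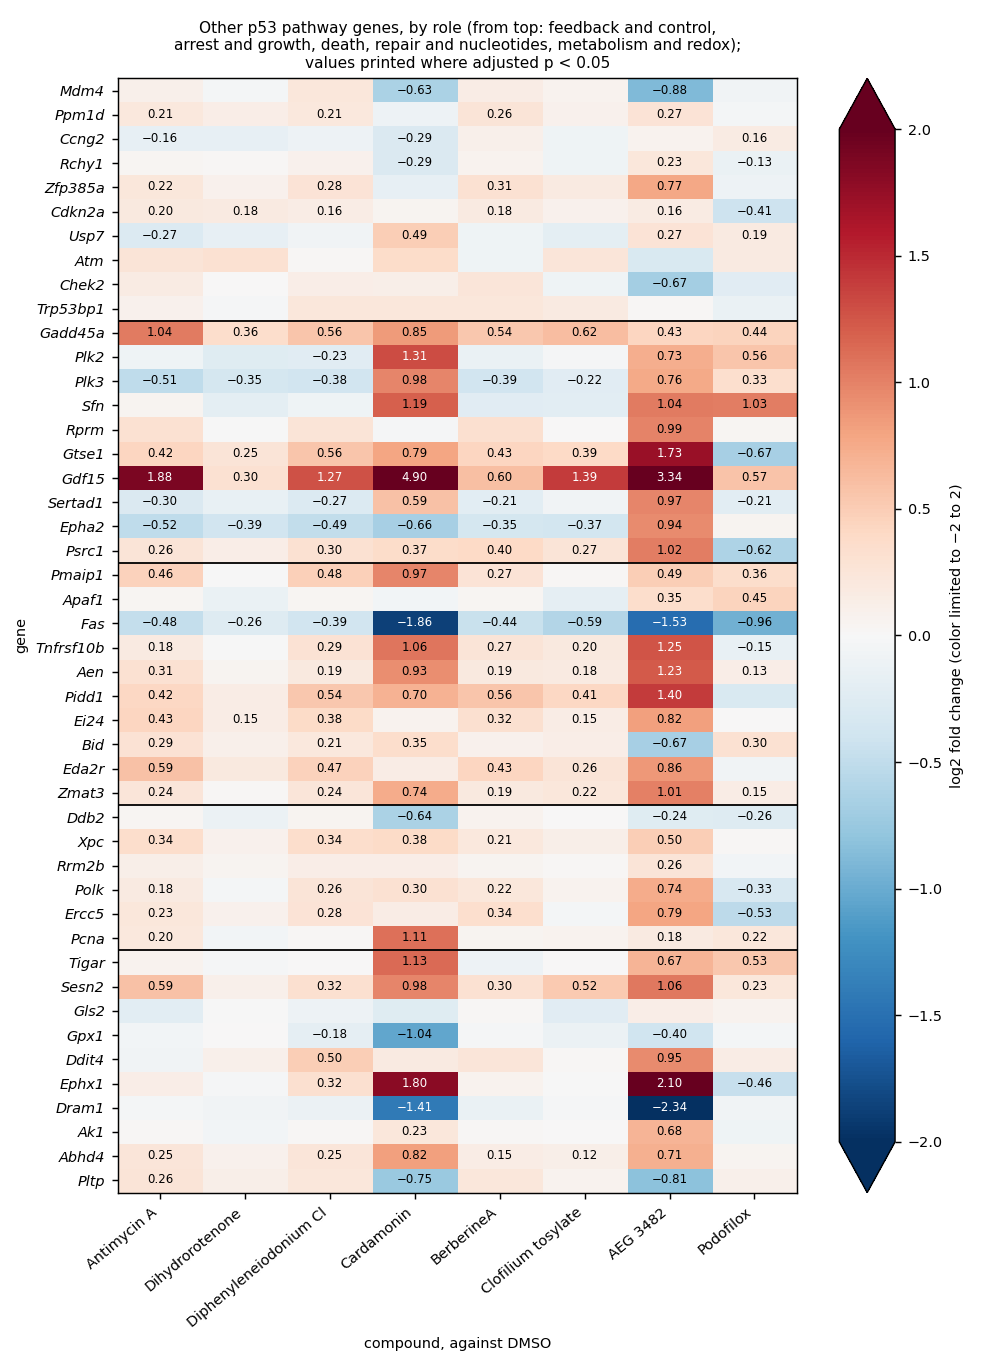
A heat map of log2 fold changes against DMSO of the 46 tested genes of the wider p53 list, in rows grouped by role, in the 8 compounds. Red is higher, blue is lower, the color range ends at -2 and 2, and values are printed where the adjusted p was below 0.05. The AEG 3482 column reaches 3.34 for Gdf15 and -2.34 for Dram1.

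By role, 10 of 10 tested genes of arrest and growth in the wider list rose in AEG 3482, beside 41.3% of all tested genes. In Cardamonin 8 of the 10 rose and 1 fell, where 37.3% of all genes rose and 33.0% fell. Not all genes of this group act in arrest. Gdf15, a secreted stress cytokine, rose in all 8 compounds and had the largest change of the list. Its DMSO level was 5.06 ± 0.725 TPM. Cardamonin brought Gdf15 to 179.6 ± 7.76 TPM, a log2 change of 4.90, and AEG 3482 to 59.9 ± 4.74 TPM (3.34). It rose by 1.88 in Antimycin A, 1.39 in Clofilium tosylate, 1.27 in Diphenyleneiodonium Cl, 0.60 in BerberineA and 0.57 in Podofilox. Gdf15 is also a target of other stress pathways, so it does not mark p53 alone. The smallest rise, 0.30 in Dihydrorotenone (adjusted p 0.0274), was lost when that compound was fitted with DMSO alone and without its replicate 1 or 2 or DMSO replicate 3 or 5. Gadd45a, a growth arrest and stress gene, also rose in all 8 compounds, from 0.36 in Dihydrorotenone, a call lost when fitted with DMSO alone, to 1.04 in Antimycin A. This gene was chosen after its values were seen. Gtse1, which restrains p53 in the G2 phase, rose by 1.73 in AEG 3482 and 0.79 in Cardamonin and fell by 0.67 in Podofilox. Plk2, a stress-induced kinase, rose by 1.31 in Cardamonin, and Sfn, a 14-3-3 protein that holds cells in G2, by 1.19.

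Among the 10 tested death genes of the wider list, 8 rose and 2 fell in AEG 3482, beside 68.1% of all tested genes called. In Cardamonin 6 rose and 1 fell, a share of 70.0% called that is near the 70.3% of all genes. Pidd1, part of a caspase-activating complex, rose by 1.40 in AEG 3482. Tnfrsf10b, a death receptor, rose by 1.25 in AEG 3482 and 1.06 in Cardamonin, and Aen, an apoptosis-linked exonuclease, by 1.23 and 0.93. Zmat3, an RNA-binding target of p53, rose in every compound but Dihydrorotenone, most in AEG 3482 (1.01) and Cardamonin (0.74). Its rises in BerberineA (0.19) and Podofilox (0.15) were lost without BerberineA replicate 2 or 3, and without Podofilox replicate 1 or 3 or DMSO replicate 6. Fas, the receptor for Fas ligand, did the reverse and fell in all 8 compounds. It went from 86.9 ± 7.97 TPM in DMSO to 23.3 ± 3.09 TPM in Cardamonin (-1.86) and 29.4 ± 2.07 TPM in AEG 3482 (-1.53), and fell by 0.96 in Podofilox. The smallest fall of Fas, -0.26 in Dihydrorotenone (adjusted p 0.0188), was lost after median-ratio scaling, in the fit with DMSO alone and without its replicate 2 or 3.

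Of the 10 tested genes of metabolism and redox control, 6 rose and 3 fell in AEG 3482 and 5 rose and 3 fell in Cardamonin, beside 68.1% and 70.3% of all genes called. Ephx1, an epoxide hydrolase, rose by 2.10 in AEG 3482 and 1.80 in Cardamonin and fell by 0.46 in Podofilox. Dram1, a regulator of autophagy, fell to 21.5 ± 2.13 TPM in AEG 3482 from 113 ± 6.12 TPM in DMSO, a log2 change of -2.34, and changed by -1.41 in Cardamonin. Tigar, which lowers glycolytic flux, rose by 1.13 in Cardamonin. Of the 6 tested repair genes, 5 rose and 1 fell in AEG 3482, beside 41.3% and 26.8% of all genes, led by Ercc5 (0.79), an excision repair nuclease, and Polk (0.74), a bypass polymerase. In Cardamonin 3 rose and 1 fell, 66.7% called, near the 70.3% of all genes (37.3% higher, 33.0% lower). Pcna, the sliding clamp of replication, rose by 1.11 there, and Ddb2, a damage recognition gene, fell by 0.64.

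Of the 10 tested genes that control p53, 5 rose and 2 fell in AEG 3482, 70.0% called, near the 68.1% of all genes. In Cardamonin 1 rose and 3 fell, beside 70.3% of all genes called, and none was called by limma in Clofilium tosylate, where 3 had an unadjusted p below 0.05. Mdm4, the partner of Mdm2, fell in AEG 3482 (-0.88) and Cardamonin (-0.63), the compounds with the highest Mdm2, and passed in no other compound. Ppm1d, a phosphatase that ends the response, rose by 0.27 in AEG 3482, 0.26 in BerberineA, 0.21 in Antimycin A and 0.21 in Diphenyleneiodonium Cl. Cdkn2a, whose locus makes the Mdm2 inhibitor p19Arf and the kinase inhibitor p16Ink4a, which gene sums cannot separate, fell by 0.41 in Podofilox. It rose in 5 compounds by 0.16 to 0.20, and each of these 5 calls was lost under at least 1 of the 2 other scalings. Zfp385a, which steers p53 to arrest genes, rose by 0.77 in AEG 3482, and Usp7, a deubiquitinase of Mdm2 and p53, by 0.49 in Cardamonin. Ccng2, a relative of Ccng1, rose in 1 compound and fell in 2, among them Cardamonin, where it fell by 0.29.

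A list of 19 close relatives of the members, 17 of them tested, was read beside them; Cdkn2a, Ccng2 and Sesn2 are in both lists. In AEG 3482 11 rose and 3 fell, 82.4% called beside 68.1% of all tested genes. In Cardamonin 7 rose and 7 fell, 82.4% beside 70.3%, and in Podofilox 11 rose and 2 fell, 76.5% beside 46.2%. In Antimycin A 6 rose and 1 fell, in Diphenyleneiodonium Cl 5 and 1, in BerberineA 7 and 1, in Clofilium tosylate 4 and 2, and in Dihydrorotenone 3 and 1. The shares called there were 41.2%, 35.3%, 47.1%, 35.3% and 23.5%, beside 37.3%, 25.7%, 21.7%, 23.4% and 14.4% of all genes, in the same order. Sesn2 rose in 7 of 8 compounds, from 19.0 ± 1.30 TPM in DMSO to 40.6 ± 0.578 TPM in AEG 3482 (1.06), 38.4 ± 1.84 TPM in Cardamonin (0.98) and 22.5 ± 0.502 TPM in Podofilox (0.23). In those same 3 compounds the log2 changes of Sesn1 were -0.48, -2.12 and -1.07.

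Cdkn1c, which encodes the kinase inhibitor p57 of the p21 family, fell in AEG 3482 (-1.39) and Cardamonin (-1.33), where Cdkn1a rose. In the other 6 compounds Cdkn1c rose, by 0.39 to 0.84. Cdkn1a rose in these compounds too, except in Podofilox, so the 2 genes went opposite ways only in AEG 3482 and Cardamonin. Phlda1 rose by 1.48 in Podofilox, where Phlda3 fell, and by 1.45 in Cardamonin and 1.44 in AEG 3482. Bcl2l1, which encodes the survival protein Bcl-xL that opposes Bax, rose by 1.08 in AEG 3482 and 0.997 in Cardamonin, beside rises of Bax of 0.83 and 0.82.

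**Figure D5:**
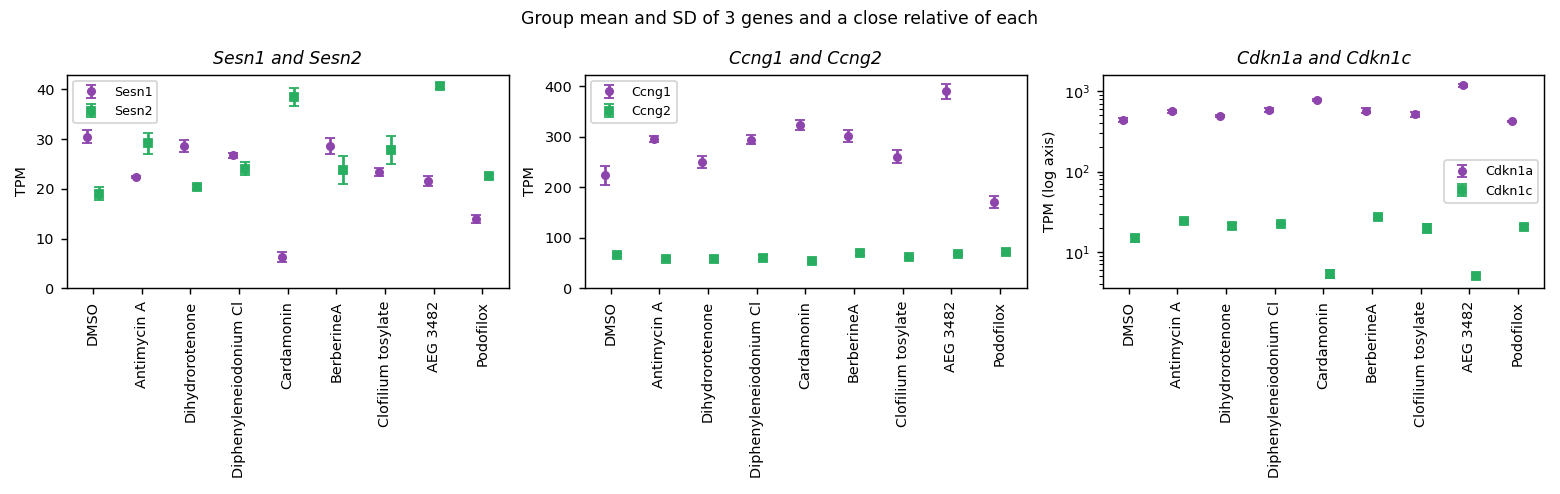
Group means with SD of TPM in DMSO and the 8 compounds, for Sesn1 with Sesn2, Ccng1 with Ccng2, and, on a log axis, Cdkn1a with Cdkn1c. In Cardamonin Sesn1 stands at 6.30 TPM and Sesn2 at 38.4 TPM, and Cdkn1c is lowest in Cardamonin and AEG 3482, where Cdkn1a is highest.

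Of 20 cell cycle genes that p21 is known to lower through the DREAM complex, 14 were tested, and 5 rose and 4 fell in AEG 3482, 3 rose and 6 fell in Cardamonin, and none rose and 7 fell in Podofilox. The shares called, 64.3%, 64.3% and 50%, lie near those of all tested genes, 68.1%, 70.3% and 46.2%. By direction, the falls were 28.6%, 42.9% and 50% of the list, beside 26.8%, 33.0% and 20.0% of all genes. With the stricter filter at 5 TPM fewer of these genes were tested, and the calls numbered 4 in AEG 3482, 3 in Cardamonin and 3 in Podofilox. Cdk1, the kinase of mitotic entry, fell in AEG 3482 (-1.95), Cardamonin (-1.64) and Podofilox (-0.56), from 31.6 ± 0.798 TPM in DMSO, and rose by 0.66 in Antimycin A. In AEG 3482, where Cdkn1a was highest, E2f1, Mcm2 and Rrm2, genes of S phase entry and DNA synthesis, rose by 0.87, 0.82 and 0.61.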

How the data were processed

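The deposited table holds TPM per gene and library, made by the authors with kallisto 0.43.1 and FastQC, with mm10 as the build, per the submitters' processing notes, and summed per gene with tximport, per the series design text. The transcript annotation is not given in the sources used here. TPM keeps no depth, so counting intervals are not given, and precision was judged from replicates. Symbols came from GENCODE M21 (GRCm38) for 29426 of 29861 genes.

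Groups were taken from the treatment labels. All 6 libraries labelled DMSO were used, where the series design text gives 5 replicates. log2(TPM + 1) was fitted with limma 3.58.1 in R 4.3.3, over 30 libraries with 1 mean per group and an intensity trend, for 8 comparisons with DMSO and 28 between compounds. Fold changes on this scale understate those of low genes. Benjamini-Hochberg adjustment ran over 13644 genes (at least 1 TPM in 3 libraries), threshold 0.05. A count test named in the series text could not be run on TPM. The fit was first tested on simulated data.

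The members, lists and naming rule were chosen with earlier results of these data known. All members were named. From each list, up to 4 genes were named, with the largest change among called genes of at least 5 TPM, and Sesn2, Ccng2, Cdkn2a, Mdm4, Ppm1d and Zmat3 always. Alternatives were other scalings, pseudocount, filters, a replicate block, 2 groups alone and leaving out each library.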

Additional observations from a re-analysis of the deposited data

How the results depend on the processing

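Of the 52 member calls, 42 held in each alternative run and 10 were lost in at least 1, named beside their values above. Of 28 changes without a call, 10 gained one. No called member changed sign. Of the 28, 7 changes of at most 0.082 in size had either sign across the alternatives: Bax, Bbc3, Btg2, Cdkn1a and Trp53inp1 in Podofilox, Btg2 in AEG 3482 and Trp53 in Clofilium tosylate. Median-ratio scaling lost 4 member calls and gained 5, quantile normalization lost 5 and gained 4, a pseudocount of 0.1 moved none, no filter lost 3, a filter at 5 TPM gained 3, and fitting 2 groups alone lost 8. Counts of members or genes called stayed within 1.5 times in 246 of 256 alternatives. The exceptions were Clofilium tosylate members, 4 as reported and 2 with 2 groups alone, and Dihydrorotenone. There the 2 members became 0 with 2 groups alone, 4 with median-ratio scaling, 1 with quantile normalization, and 0 to 4 when each library was left out (0 without its replicate 1 or 2, 4 without DMSO replicate 4). The 1963 genes called there became 898 with 2 groups alone and 1233 to 2179 with each library left out. The cause was not tested. Median-ratio scaling moved the median of all genes in AEG 3482 by -0.11. The share of higher calls among all called genes went from 60.7% to 49.3% there, from 57.9% to 47.7% in BerberineA, and from 34.4% to 50.7% (47.2% by quantile normalization) in Dihydrorotenone. Bcl2, a relative counted among the falls in Cardamonin at -0.22 (adjusted p 0.0257), was at 0.029 (adjusted p 0.758) after quantile normalization.

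Replicate numbers showed no strong pairing of these samples. Same-numbered libraries had correlations of -0.055 to 0.12, and 7 of 24 correlated best with the DMSO library of their own number. With 3 libraries per compound, a weaker pairing could be missed. A replicate block lost 3 member calls and gained 5. With the replicate block, members called numbered 9 in AEG 3482, 8 in Antimycin A, 7 in BerberineA, 9 in Cardamonin, 5 in Clofilium tosylate, 3 in Dihydrorotenone, 8 in Diphenyleneiodonium Cl and 5 in Podofilox. Unknown read depth limits what can be said of low genes.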
